A study of Mus musculus with 8 samples.

Results

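The 10 circadian clock genes Per1, Per2, Per3, Cry1, Cry2, Clock, Nr1d1, Nr1d2, Dbp and Tef were taken by symbol from a table of 24346 genes, and each symbol was found once. RNA was sequenced from cultured mouse bone marrow mesenchymal stem cells (MSCs), adherent stromal cells able to give rise to bone, cartilage and fat. The 8 libraries fell into 4 groups of 2: wild-type (WT) and Dnmt3l knockout (KO) MSCs, each taken either undifferentiated or 3 days into osteogenic induction (differentiating). Dnmt3l encodes a catalytically inactive cofactor of the de novo DNA methyltransferases. The KO cells were homozygous for a targeted Dnmt3l allele and the WT cells came from +/+ littermates, all on a C57BL/6 background, from adult female mice. Marrow of several mice of a genotype was mixed and CD11b-positive and CD45-positive cells were removed, so a library is a pooled culture at passage 4 and not an animal. Undifferentiated cells were kept in medium with 20% serum. The induction medium held 10% serum, 0.1 µM dexamethasone (a synthetic glucocorticoid), 10 mM β-glycerophosphate and 50 µM ascorbic acid 2-phosphate. The hour of collection and the time since the last change of medium are not given in the sources used here, so a difference in the level of a rhythmic transcript and a difference in the phase of its rhythm cannot be told apart. Serum, dexamethasone, β-glycerophosphate and ascorbic acid 2-phosphate changed together on induction, and their parts cannot be told apart either. Per the study, induction began at confluence, and these cells were taken 3 days later. Cell density and time in culture may therefore differ between the states as well. In these bulk cultures, fewer cells of a type and less RNA per cell cannot be told apart.

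The mammalian clock is a loop of transcription factors that repress their own activators over about a day. CLOCK, paired with BMAL1 (the product of Arntl), binds E-box elements and turns on the Per and Cry genes, whose proteins return to the nucleus and inhibit the pair. The same pair drives Nr1d1 and Nr1d2, which encode the heme-binding repressors REV-ERBα and REV-ERBβ. These compete with the ROR activators at ROR elements in Arntl, Clock, Cry1 and Nfil3. DBP and TEF are activators of the PAR bZIP family that bind D-box elements, where NFIL3 represses. Fibroblast-like cells in culture hold such a clock, serum and dexamethasone are both known to reset it, and Per1 is a known direct target of the glucocorticoid receptor.

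Dnmt3l was at 0.830 to 1.56 RPKM (a read level scaled to transcript length and library size) in the 4 WT libraries and was listed at 0 in the 4 KO libraries. The study reports that the WT reads covered only the later exons of Dnmt3l. It could not detect the canonical protein in MSCs, so these values do not show that WT MSCs held the cofactor. The values of the low genes placed the libraries at 48200000 to 67100000 scaled reads, which put about 250 reads on the thinnest value of a clock gene (Per2) and at least 4973 on every value of Clock. The KO differentiating pair of libraries differed most, with a median absolute log2 difference of 0.094 over 12269 genes, against 0.0454 to 0.0597 in the other pairs. The 8 MSC markers were detected in every library and summed to 1481 to 3334 RPKM, but their levels differed widely. Ly6a ranged from 470.9 to 2603 RPKM and Nt5e from 3.918 to 6.57. The markers did not move together. In KO differentiating libraries Ly6a was at its highest (2603 and 2523 RPKM) and Cd44 at its lowest (62.99 and 52.87). Those of endothelial cells were scarce (4 genes summing to 0.514 to 4.52 RPKM). The 8 macrophage and leukocyte genes summed to 17.9 to 19.1 RPKM in WT and 8.67 to 9.53 in KO undifferentiated libraries, and to 31.1 to 35.7 and 13.7 to 14.7 after induction. Lyz2 contributed 12.85 to 26.45 RPKM in the WT and 3.19 to 7.66 in the KO libraries, while the defining markers Ptprc, Itgam and Adgre1 stayed at or below 0.377 RPKM. Cd14 was higher in KO, at 2.588 and 2.184 against 1.228 and 1.47 RPKM in undifferentiated libraries. After induction it was at 4.669 and 4.899 against 3.484 and 3.425. Csf1r was higher in KO before induction (1.885 and 1.903 against 1.529 and 1.427) and lower after it. The other genes of the list had lower means in KO in both states. Actb, the cytoplasmic actin gene, was listed at 0 in both KO undifferentiated libraries and at 1474 to 4314 RPKM in the others, so a 0 in this table can be a failed estimate, but no clock gene among the 10 had one.

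All 10 clock genes were detected in all 8 libraries, at moderate to low levels. By mean RPKM over the libraries, Per2 lay above 23.5% of the 15342 genes tested and Tef above 72.8%. In WT undifferentiated MSCs the order of RPKM levels was Nr1d2, Tef, Clock, Nr1d1, Dbp, Cry2, Cry1, Per3, Per1 and Per2, and only the neighbors Nr1d1 and Dbp overlapped between libraries. In WT differentiating MSCs it was Tef, Clock, Nr1d2, Cry2, Per1, Nr1d1, Dbp, Cry1, Per3 and Per2, where Cry1 and Per3 overlapped. KO undifferentiated MSCs ran Nr1d2, Clock, Tef, Nr1d1, Cry2, Cry1, Dbp, Per3, Per1 and Per2 with no overlap between neighbors. KO differentiating MSCs ran Tef, Nr1d2, Clock, Cry2, Nr1d1, Per1, Per3, Dbp, Cry1 and Per2, where Per1 overlapped Per3 and Per3 overlapped Dbp. Per2 was the lowest of the 10 in all 4 groups.

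**Figure D1:**
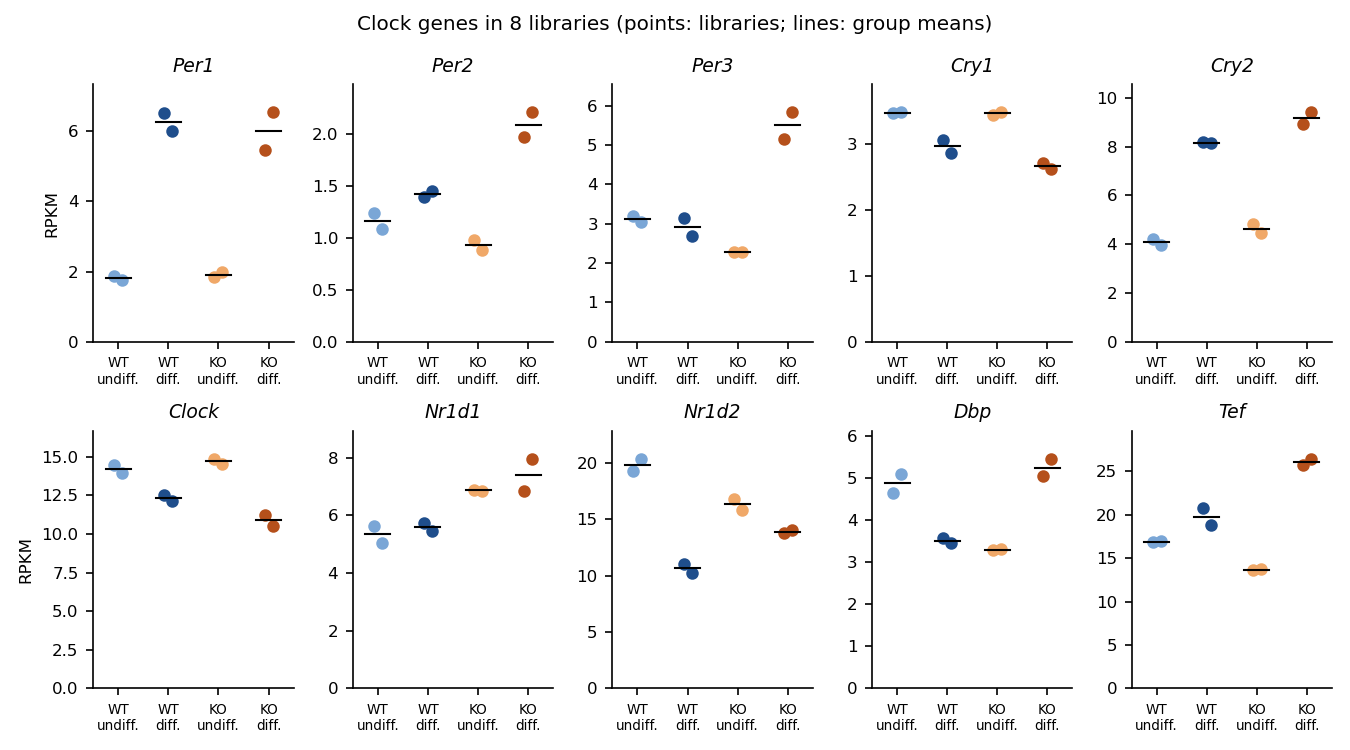
RPKM (vertical axis, from 0, a scale for each gene) of the 10 clock genes in the 4 groups on the horizontal axis, with a point for each library and a line at each group mean. Per1 and Cry2 step up on induction in both genotypes, whereas Dbp runs from 4.66 and 5.10 down to 3.57 and 3.46 RPKM in WT and from 3.29 and 3.32 up to 5.05 and 5.47 in KO.

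The promoters of 9 of the 10 genes (all but Per2) could be read, as the 250 bases before each RefSeq start (GRCm38.p6), in 13 windows. The letters of the E-box, CACGTG, stood in windows of 3 genes (Per1, Cry1 and Tef) and in 6.02% of all 32851 windows of that length. D-box letters, TTANGTAA or its complement TTACNTAA, were found in 1 gene, Per3, and in 2.06% of all windows. The Per3 window held 2 copies, at 205 and 158 bases before the start, and 0.0731% of all windows held 2 or more. The letters TGACGTCA (a cAMP response element), TAGGTCA (a ROR element, complement TGACCTA) and ACANNNTGT (the core of a glucocorticoid receptor element) were in 0 of the 13 windows, against 1.55%, 2.23% and 5.84% of all windows. Both strands were searched, and no 2 motifs overlapped in the windows shown. Each match is a description of letters and not a shown binding site, and a window without one says only that those letters are not in it. The 4 windows below are the ones with a match at the first start of each gene. They lie at chr11:69098699-69098948 on the + strand (Per1), chr4:151044666-151044915 on the - strand (Per3), chr10:85185055-85185304 on the - strand (Cry1) and chr15:81802423-81802672 on the + strand (Tef). They are written 5′ to 3′ along the gene with the matched E-box or D-box letters in capitals. The gene spans given below come from another annotation. By those spans the Per1 and Tef windows lie inside the gene, and the Cry1 window overlaps its gene.
Per1: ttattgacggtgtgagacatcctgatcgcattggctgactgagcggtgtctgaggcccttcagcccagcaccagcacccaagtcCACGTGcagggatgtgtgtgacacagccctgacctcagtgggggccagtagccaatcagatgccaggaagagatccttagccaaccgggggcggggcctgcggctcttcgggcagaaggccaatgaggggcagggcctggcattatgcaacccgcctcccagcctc
Per3: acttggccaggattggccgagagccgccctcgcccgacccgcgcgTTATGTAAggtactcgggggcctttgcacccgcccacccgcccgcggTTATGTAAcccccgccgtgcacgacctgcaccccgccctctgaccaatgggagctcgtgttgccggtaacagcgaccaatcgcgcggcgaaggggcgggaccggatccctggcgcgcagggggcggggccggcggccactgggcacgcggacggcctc
Cry1: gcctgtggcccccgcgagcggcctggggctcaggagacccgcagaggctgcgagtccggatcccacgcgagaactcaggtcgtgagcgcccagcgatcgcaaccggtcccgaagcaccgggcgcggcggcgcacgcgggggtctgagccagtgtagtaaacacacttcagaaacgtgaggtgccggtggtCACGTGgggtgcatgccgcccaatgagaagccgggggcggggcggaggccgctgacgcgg
Tef: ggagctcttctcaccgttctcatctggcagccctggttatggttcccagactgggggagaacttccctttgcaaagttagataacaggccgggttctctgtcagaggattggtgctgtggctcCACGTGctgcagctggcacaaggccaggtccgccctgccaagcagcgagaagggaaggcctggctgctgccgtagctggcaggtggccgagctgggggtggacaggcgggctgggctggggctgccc

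Differences are given as log2 fold changes on the log2(RPKM + 0.1) scale with standard errors, and a gene passed the test at a limma p, adjusted by the Benjamini-Hochberg method over all 15342 genes, under 0.05. A differentially expressed gene (DEG) also changed by more than 1 on that scale. In undifferentiated MSCs the genotype contrast passed in 5 of the 10 clock genes, with 1 higher in KO (Nr1d1) and 4 lower (Per3, Nr1d2, Dbp and Tef). Among all genes 14.7% were higher and 17.5% lower. None of the 5 was a DEG, against 1.70% of all genes, and the median log2 difference over the 10 genes was -0.14 (-0.00 over all genes). This count rested on single libraries. It was 1 without the second WT undifferentiated library, 2 without the first KO undifferentiated library and 1 without the second, and Dbp was the gene that passed in every case. Per3 missed the limit without any 1 of the 4 undifferentiated libraries (adjusted p = 0.0728 to 0.0896), and Tef without 3 of those 4 (0.0522 to 0.0562). Nr1d2 missed it without the second library of either genotype (0.0704 and 0.0714). Nr1d1 missed it without the second WT undifferentiated library, either KO undifferentiated library or either WT differentiating library (0.0507 to 0.13).

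In differentiating MSCs the direction of the genotype contrast was mostly upward. Per2, Per3, Nr1d1, Nr1d2, Dbp and Tef were higher in KO and Clock was lower, so that 6 genes were higher, 1 was lower and 3 did not pass. Among all genes 17.8% were higher and 22.9% lower. No clock gene was a DEG (3.30% of all genes were), and the median log2 difference was 0.39 (-0.01 over all genes). Without the first WT differentiating library Per3 became a DEG. Nr1d1 and Clock missed the limit without either WT differentiating library or without the second KO differentiating library (Nr1d1, adjusted p = 0.0524 to 0.0892; Clock, 0.0655 to 0.105). They also missed it in a fit of the 4 differentiating libraries alone (0.0666 and 0.0906). The other 5 genes passed under each of the 17 alternatives tried.

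**Figure D2:**
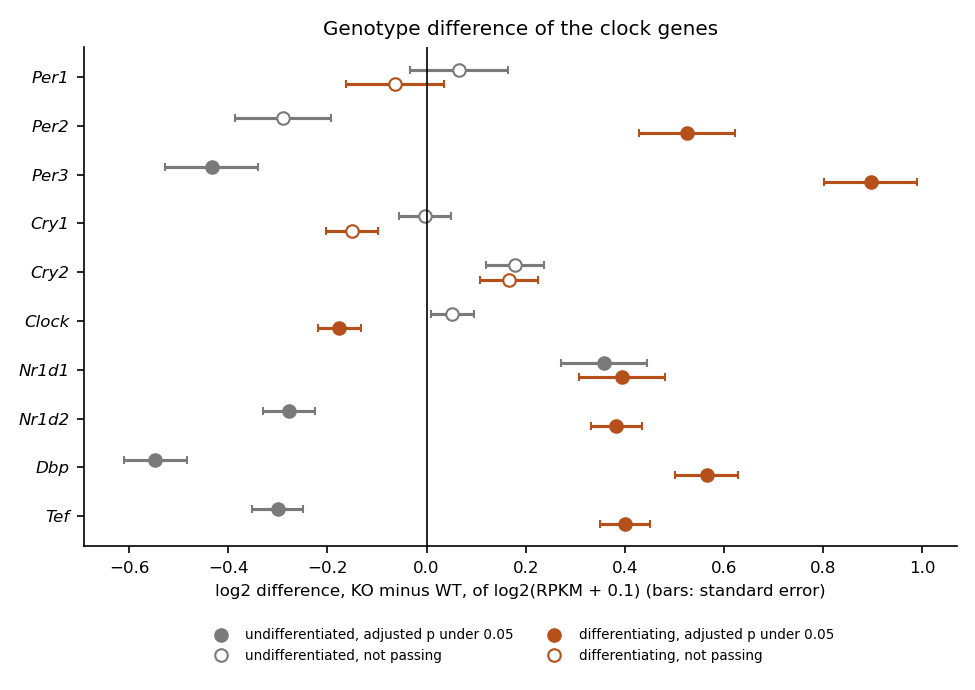
Log2 difference between KO and WT MSCs for each clock gene (horizontal axis; bars, standard error of the limma fit), in undifferentiated cells (gray) and differentiating cells (orange), with filled points where the adjusted p was under 0.05. Per3, Nr1d2, Dbp and Tef lie below 0 in undifferentiated and above 0 in differentiating cells, and Nr1d1 lies above 0 in both.

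Induction changed 7 of the 10 clock genes in WT MSCs. Per1, Cry2 and Tef rose and Cry1, Clock, Nr1d2 and Dbp fell. Among all genes 31.6% rose and 32.8% fell. Per1 was the 1 DEG among the clock genes, against 14.3% of all genes, and Cry2 joined it without the first WT undifferentiated library. In KO MSCs 9 of 10 changed: Per1, Per2, Per3, Cry2, Dbp and Tef rose, and Cry1, Clock and Nr1d2 fell. Among all genes 36.4% rose and 36.6% fell. Per1, Per2 and Per3 were DEGs there, against 22.9% of all genes. With a pseudocount of 1 in place of 0.1, which compresses low values, Per1 alone was a DEG in KO. The median log2 change over the 10 genes was -0.02 in WT and 0.79 in KO (-0.00 over all genes in both).

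**Figure D3:**
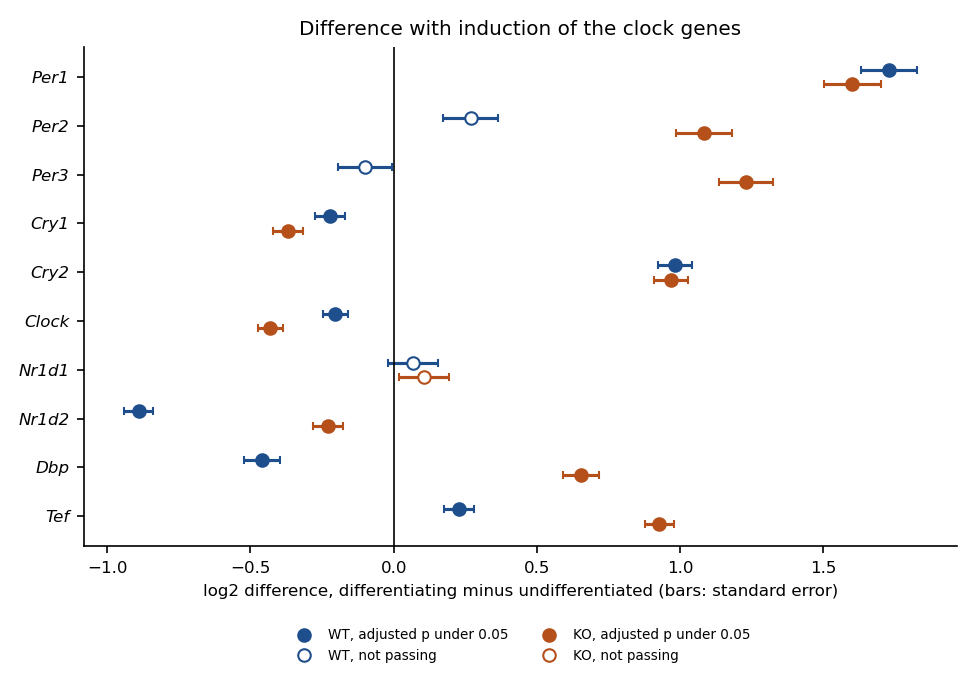
Log2 difference between differentiating and undifferentiated MSCs for each clock gene (horizontal axis; bars, standard error of the limma fit) in WT (blue) and KO (orange), with filled points where the adjusted p was under 0.05. The WT and KO points lie together for Per1, Cry2 and Nr1d1 and on opposite sides of 0 for Per3 and Dbp, although Per3 did not pass in WT.

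The test of whether the response to induction differed by genotype (the interaction) passed in 6 of the 10 genes. Per2, Per3, Nr1d2, Dbp and Tef had the more positive response in KO, against 19.4% of all genes, and Clock the more negative one, against 20.0%. Per3 and Dbp passed both limits of a DEG in this contrast (6.17% of all genes), and with a pseudocount of 1 only Per3 did. The WT and KO contrasts share libraries with the genotype contrasts above, so the counts are not independent of one another.

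The Period genes encode the inhibitors that set the length of the cycle. Per1 (chr11:69095217-69109960, + strand, mm10) was at 1.88 and 1.76 RPKM in WT undifferentiated, 6.52 and 5.99 in WT differentiating, 1.83 and 1.98 in KO undifferentiated and 5.47 and 6.54 in KO differentiating libraries. All 4 induced libraries were above all 4 undifferentiated ones, and the genotypes overlapped in both states. Per1 rose by 1.73 ± 0.10 (SE) in WT (adjusted p = 2.8e-05) and by 1.60 ± 0.10 in KO (adjusted p = 2.1e-05), the largest rise among the 10 genes in each genotype. Its genotype differences were 0.06 undifferentiated (adjusted p = 0.65) and -0.06 differentiating (0.65), each with an SE of 0.10, and its interaction was -0.13 ± 0.14 (adjusted p = 0.50).

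Per2 (chr1:91415982-91459324, - strand) was at 1.24 and 1.09 RPKM in WT undifferentiated, 1.39 and 1.45 in WT differentiating, 0.978 and 0.890 in KO undifferentiated and 1.97 and 2.22 in KO differentiating libraries. The KO differentiating libraries were the highest and the KO undifferentiated libraries the lowest, and no groups overlapped. Per2 rose by 1.08 ± 0.10 in KO (adjusted p = 1.1e-04). The WT difference of 0.27 ± 0.10 fell at the limit (adjusted p = 0.051), passed without the first WT undifferentiated library (adjusted p = 0.0478), and was -0.02 after quantile normalization. The interaction was 0.82 ± 0.14 (adjusted p = 0.0064). In differentiating cells KO exceeded WT by 0.53 ± 0.10 (adjusted p = 0.0088), or 1.47-fold in mean RPKM.

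Per3 (chr4:151003652-151044665, - strand) was at 3.19 and 3.05 RPKM in WT undifferentiated, 3.15 and 2.68 in WT differentiating, 2.29 and 2.28 in KO undifferentiated and 5.16 and 5.84 in KO differentiating libraries. The WT states overlapped, whereas the KO libraries lay below all WT libraries before induction and above all of them after it. Per3 rose by 1.23 ± 0.09 in KO (adjusted p = 5.2e-05), while its WT difference was -0.10 ± 0.09 (adjusted p = 0.39). After quantile normalization the WT difference was -0.30 and passed (adjusted p = 0.0339). The interaction, 1.33 ± 0.13 (adjusted p = 0.0014), was the largest among the 10 genes. KO was lower than WT by -0.43 ± 0.09 in undifferentiated cells (adjusted p = 0.018) and higher by 0.90 ± 0.09 in differentiating cells (adjusted p = 0.0016), or 1.89-fold in mean RPKM. Per3 lies within the annotated span of Camta1 on the same strand, and Camta1 itself was at 0.941 to 1.61 RPKM. Without 1 of the undifferentiated libraries the adjusted p of the KO deficit rose to at most 0.0896. The 2 D-box letter runs printed above stand in its promoter window, the 1 member window with such letters.

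The makeup of the summed Period RPKM differed between the induced genotypes. Per1 was 29.8% of the sum in both WT undifferentiated libraries and 59.0% and 59.2% after induction. In KO it was 35.9% and 38.4% before and 43.4% and 44.8% after. The Per3 share fell from 50.6% and 51.7% to 28.5% and 26.5% in WT and from 44.9% and 44.3% to 41.0% and 40.0% in KO. The summed level was 5.10 to 6.30 RPKM in the 4 undifferentiated libraries, 11.1 and 10.1 in WT differentiating and 12.6 and 14.6 in KO differentiating libraries. These shares are descriptions with no test.

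The cryptochromes, the partners of the PER proteins in repression, moved in opposite directions. Cry1 (chr10:85131700-85185064, - strand) was at 3.47 and 3.48 RPKM in WT undifferentiated, 3.07 and 2.87 in WT differentiating, 3.45 and 3.49 in KO undifferentiated and 2.71 and 2.62 in KO differentiating libraries. Every induced library was below every undifferentiated one, and the undifferentiated genotypes overlapped. Cry1 fell by 0.22 on the log2 scale in WT (SE 0.05, adjusted p = 0.010) and by 0.37 in KO (SE 0.05, adjusted p = 8.8e-04). The WT fall missed the limit without the second WT differentiating library (adjusted p = 0.0553). The difference between genotypes in differentiating cells, -0.15 ± 0.05, did not pass (adjusted p = 0.063), nor did the interaction of -0.15 ± 0.07 (adjusted p = 0.17).

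Cry2 (chr2:92403646-92434043, - strand) was at 4.21 and 3.95 RPKM in WT undifferentiated, 8.17 and 8.14 in WT differentiating, 4.83 and 4.44 in KO undifferentiated and 8.92 and 9.42 in KO differentiating libraries. The induced libraries were all above the undifferentiated ones, and KO was above WT in each state without overlap. Cry2 rose by 0.98 ± 0.06 in WT (adjusted p = 3.4e-05) and 0.97 ± 0.06 in KO (adjusted p = 2.0e-05), and the interaction was -0.01 ± 0.08 (adjusted p = 0.92). The genotype differences of 0.18 ± 0.06 and 0.17 ± 0.06 did not pass (adjusted p = 0.065 and 0.068). The ratio of Cry2 to Cry1 was 1.21 and 1.13 in WT undifferentiated and 1.40 and 1.27 in KO undifferentiated libraries. It reached 2.66 and 2.84 in WT and 3.29 and 3.60 in KO differentiating libraries. Cry2 overlaps the transcript D930015M05Rik on the opposite strand, which was at 0.883 to 2.41 RPKM.

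Clock (chr5:76209868-76304792, - strand), the activator, was at 14.5 and 13.9 RPKM in WT undifferentiated, 12.5 and 12.1 in WT differentiating, 14.9 and 14.6 in KO undifferentiated and 11.2 and 10.6 in KO differentiating libraries. The induced libraries were all below the undifferentiated ones. Clock fell by 0.20 on the log2 scale in WT (SE 0.04, adjusted p = 0.0074) and by 0.43 in KO (SE 0.04, adjusted p = 1.9e-04). The interaction of -0.23 ± 0.06 passed at an adjusted p of 0.031 and was lost without any 1 of 7 of the 8 libraries (adjusted p = 0.0543 to 0.1), the first KO differentiating library being the exception. In differentiating cells KO was lower by -0.18 ± 0.04 (adjusted p = 0.023, and up to 0.105 with 1 library left out), and in undifferentiated cells the difference was 0.05 ± 0.04 (adjusted p = 0.40).

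The REV-ERB repressors behaved differently from each other. Nr1d1 (chr11:98767932-98775333, - strand) was at 5.65 and 5.04 RPKM in WT undifferentiated, 5.74 and 5.47 in WT differentiating, 6.88 and 6.86 in KO undifferentiated and 6.86 and 7.98 in KO differentiating libraries. All 4 KO libraries were above all 4 WT libraries, and the states overlapped within each genotype. KO exceeded WT by 0.36 ± 0.09 in undifferentiated cells (adjusted p = 0.026) and 0.39 ± 0.09 in differentiating cells (adjusted p = 0.015), with adjusted p up to 0.13 and 0.0892 when 1 library was left out. The differences with induction were 0.07 ± 0.09 in WT (adjusted p = 0.52) and 0.11 ± 0.09 in KO (adjusted p = 0.31), and the interaction was 0.04 ± 0.12 (adjusted p = 0.84). The 3′ end of Nr1d1 overlaps Thra on the opposite strand over 1075 bases, and Thra ranged from 12.0 to 50.3 RPKM. The alignment is stated to have used strand, and the part of that overlap in the Nr1d1 values was not tested.

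Nr1d2 (chr14:18204054-18239127, - strand), more abundant per length than Nr1d1 in every library, was at 19.3 and 20.4 RPKM in WT undifferentiated, 11.0 and 10.3 in WT differentiating, 16.8 and 15.9 in KO undifferentiated and 13.8 and 14.1 in KO differentiating libraries. The 4 groups did not overlap, and the spread between states was wider in WT. Nr1d2 fell by 0.89 on the log2 scale in WT (SE 0.05, adjusted p = 3.1e-05) and by 0.23 in KO (SE 0.05, adjusted p = 0.0075). The interaction was 0.66 ± 0.07 (adjusted p = 0.0018). KO was lower by -0.28 ± 0.05 in undifferentiated cells (adjusted p = 0.012) and higher by 0.38 ± 0.05 in differentiating cells (adjusted p = 0.0033), or 1.31-fold in mean RPKM. The undifferentiated difference was lost without the second library of either genotype (adjusted p = 0.0704 and 0.0714).

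The D-box activators, outputs of the loop that act on metabolic and detoxification genes, differed by genotype in both states. Dbp (chr7:45705088-45710203, + strand) was at 4.66 and 5.10 RPKM in WT undifferentiated, 3.57 and 3.46 in WT differentiating, 3.29 and 3.32 in KO undifferentiated and 5.05 and 5.47 in KO differentiating libraries. WT was above KO before induction and below it after, without overlap in either state. Dbp fell by 0.46 in WT (SE 0.06, adjusted p = 0.0011) and rose by 0.65 ± 0.06 in KO (adjusted p = 1.5e-04), so it passed in opposite directions. The interaction was 1.11 ± 0.09 (adjusted p = 8.8e-04). KO was lower by -0.55 ± 0.06 in undifferentiated cells (adjusted p = 0.0026) and higher by 0.57 ± 0.06 in differentiating cells (adjusted p = 0.0019), and all 5 contrasts passed under each alternative tried. The end of Dbp overlaps Sphk2 on the opposite strand over 737 bases, with Sphk2 at 7.54 to 10.3 RPKM.

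Tef (chr15:81802421-81826863, + strand) was at 16.8 and 16.9 RPKM in WT undifferentiated, 20.8 and 18.8 in WT differentiating, 13.6 and 13.7 in KO undifferentiated and 25.8 and 26.5 in KO differentiating libraries. Both induced groups lay above both undifferentiated groups, and KO was the lowest before and the highest after induction. Tef rose by 0.23 ± 0.05 in WT (adjusted p = 0.0088) and by 0.93 ± 0.05 in KO (adjusted p = 1.3e-05). Centring each library on its median moved the median change of all genes to -0.10 in WT, where Tef then missed the limit (0.13, adjusted p = 0.0669). The interaction was 0.70 ± 0.07 (adjusted p = 0.0015). KO was lower by -0.30 ± 0.05 in undifferentiated cells (adjusted p = 0.0086) and higher by 0.40 ± 0.05 in differentiating cells (adjusted p = 0.0028). The undifferentiated difference had an adjusted p of up to 0.0562 with 1 library left out. Hlf, the other member of the PAR bZIP family, was at 0.0111 to 0.0369 RPKM, below the minimum for testing.

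Among other genes of the clock, 26 of 27 listed symbols were in the table and 24 could be tested. In undifferentiated cells 5 were higher and 9 lower in KO (14.7% and 17.5% of all genes were), and in differentiating cells 8 were higher and 5 lower (17.8% and 22.9% of all genes), none of them DEGs. Induction raised 9 and lowered 11 in WT (31.6% and 32.8% of all genes), and raised 10 and lowered 8 in KO (36.4% and 36.6%). The interaction passed in 7 upward and 2 downward (19.4% and 20.0% of all genes). The median log2 differences over the 24 were -0.12 and 0.03 for genotype, 0.01 and 0.04 for induction and 0.07 for the interaction.

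Arntl, which encodes the CLOCK partner BMAL1, was at 15.7 and 15.1 RPKM in WT undifferentiated, 13.2 and 13.9 in WT differentiating, 12.8 and 11.9 in KO undifferentiated and 11.0 and 10.9 in KO differentiating libraries. KO was below WT in each state, by -0.32 ± 0.05 (adjusted p = 0.0059) and -0.31 ± 0.05 (adjusted p = 0.0053). Bhlhe40, which encodes an E-box repressor (DEC1), was at 28.2 and 28.3 RPKM in WT undifferentiated, 6.55 and 6.82 in WT differentiating, 15.4 and 16.1 in KO undifferentiated and 3.59 and 3.15 in KO differentiating libraries. Induction took it to 0.237 of its mean RPKM in WT and 0.214 in KO (adjusted p = 3.3e-06 and 1.4e-06), and KO was below WT in both states (-0.84 and -0.97, adjusted p = 7.8e-04 and 6.8e-04). Ciart, another repressor of CLOCK and BMAL1, was at 4.71 and 4.20 RPKM in WT undifferentiated and 2.42 and 2.45 in KO undifferentiated libraries. After induction it was at 1.29 and 0.962 in WT and 1.08 and 0.796 in KO, lower by -1.91 and -1.30 on the log2 scale (adjusted p = 2.0e-04 and 7.1e-04).

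Nfil3, the D-box repressor, was at 17.9 and 18.5 RPKM in WT undifferentiated, 29.8 and 27.4 in WT differentiating, 16.4 and 16.6 in KO undifferentiated and 37.7 and 38.0 in KO differentiating libraries. It rose by 0.65 ± 0.05 in WT (adjusted p = 6.5e-05) and 1.20 ± 0.05 in KO (adjusted p = 3.3e-06), with an interaction of 0.55 ± 0.06 (adjusted p = 0.0021), so the D-box activator Tef and its repressor both had the larger rise in KO. Nampt, a clock output that makes the precursor of NAD, went from 12.1 and 12.2 to 54.5 and 50.1 RPKM in WT and from 8.89 and 8.82 to 86.9 and 93.9 in KO. Its interaction was 1.24 ± 0.08 (adjusted p = 5.0e-04), the 1 DEG of the 24 in that contrast. Fbxl21, which encodes an F-box protein for cryptochromes, rose by 1.13 in WT and 1.81 in KO (adjusted p = 2.8e-04 and 2.1e-05).

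Npas2, a paralog of Clock, was low, at 0.135 to 0.215 RPKM in undifferentiated and 0.401 to 0.475 in differentiating libraries, and rose by 0.90 in WT and 1.06 in KO (adjusted p = 0.0014 and 4.8e-04). Rora, the ROR activator, was at 8.92 to 11.9 RPKM over all libraries and rose by 0.29 and 0.17 (adjusted p = 0.0017 and 0.013). Bhlhe41 was at 0.318 to 0.585 RPKM, lower in KO undifferentiated cells by -0.52 ± 0.12 (adjusted p = 0.023).

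**Figure D4:**
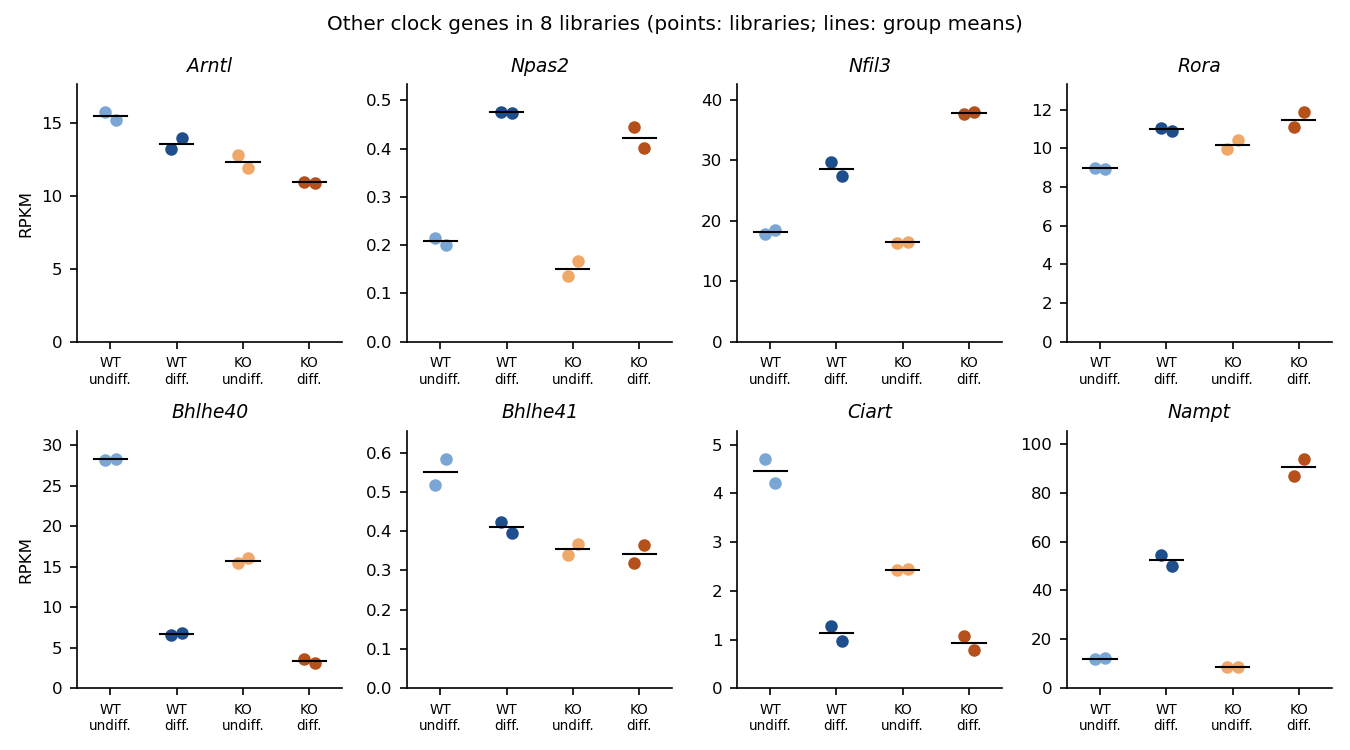
RPKM (vertical axis, from 0, a scale for each gene) of Arntl, Npas2, Nfil3, Rora, Bhlhe40, Bhlhe41, Ciart and Nampt in the 4 groups, with a point for each library and a line at each group mean. Bhlhe40 and Ciart drop and Nampt and Nfil3 climb on induction, and the highest Nampt values, 86.9 and 93.9 RPKM, are in the KO differentiating libraries.

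Values set against each other within a library are given as descriptions with no test. The mean log2(RPKM + 0.1) of 7 E-box and D-box genes (the Per and Nr1d genes, Dbp and Tef) minus that of 5 genes under ROR or REV-ERB control (Arntl, Npas2, Clock, Nfil3 and Cry1) was -0.11 and -0.13 in WT undifferentiated libraries. It was -0.16 and -0.22 in WT differentiating, -0.17 and -0.20 in KO undifferentiated and 0.23 and 0.42 in KO differentiating libraries. The genes were not grouped by the letters in their promoter windows. E-box letters were also in the window of Cry1, placed among the 5, and ROR element letters were in 0 of the 13 windows. Of the 7, only Per1, Per3 and Tef had E-box or D-box letters in a window. Cry2, Bhlhe40 and Ciart were not among the 7 genes, and the difference was not computed with them. In KO differentiating libraries the mean RPKM of Bhlhe40 (3.366) and Ciart (0.939) was the lowest of the 4 groups. That of Cry2 (9.165) was the highest. With the genes as chosen, the KO differentiating pair stood alone above 0 and also differed most from each other. The ratio of Dbp to Arntl followed the same split, at 0.249 to 0.337 in the 6 other libraries and 0.461 and 0.504 in the KO differentiating ones. The ratio of Tef to Nfil3 fell from 0.942 and 0.914 to 0.700 and 0.686 in WT and from 0.834 and 0.830 to 0.683 and 0.698 in KO, so the induced genotypes overlapped in it.

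**Figure D5:**
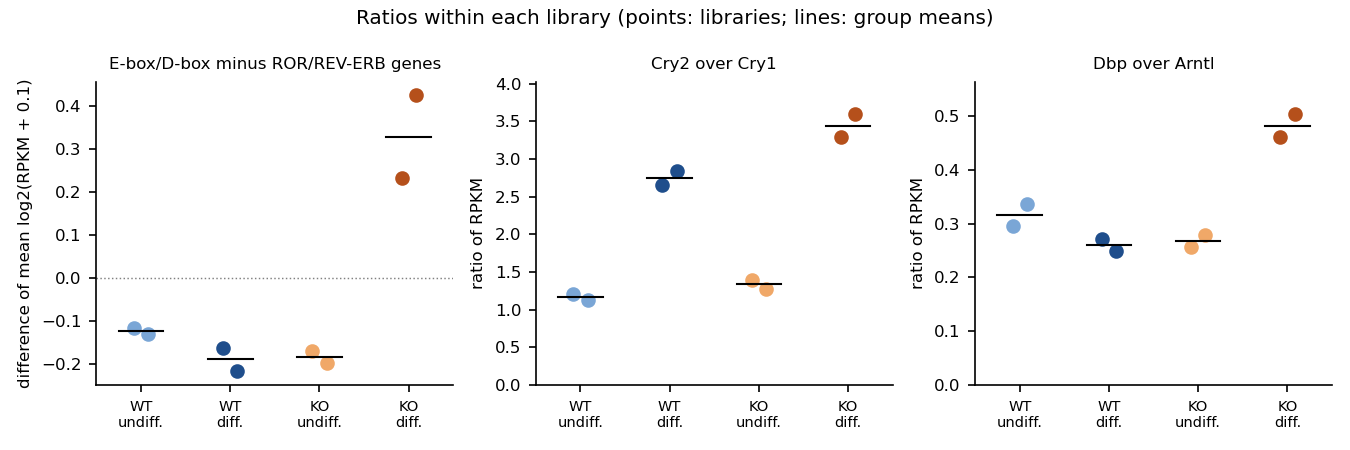
Values within each library for the 4 groups: the difference in mean log2(RPKM + 0.1) between E-box or D-box genes and ROR or REV-ERB controlled genes (left), the Cry2 to Cry1 ratio (middle) and the Dbp to Arntl ratio (right), with lines at group means. The left and right panels set the KO differentiating libraries apart (0.23 and 0.42 at left, 0.461 and 0.504 at right). The Cry2 to Cry1 ratio is higher after induction in both genotypes. The left panel leaves out Cry2, Bhlhe40 and Ciart.

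Likeness over the 8 libraries was computed for Dbp, Per1 and Cry1. Among the 12269 genes averaging 1 RPKM or more, 19 reached a Pearson correlation of 0.95 with Dbp, against 1280 with Per1 and 1594 with Cry1. The genes most like Dbp were Zfp763 (r = 0.988), Mtm1 (0.981), C330018D20Rik (0.977), Mir350 (0.970, listed at 0 in whole groups) and Prkd3 (0.969). Those most like Per1 were Adgrl2, Epas1, Dag1, Gstm6 and Hipk1 (r = 0.998 to 0.999), and those most like Cry1 were Gcnt4, Cars2, Myh10, Elovl5 and Pard6g (0.990 to 0.995). The points are 4 pairs of libraries, so such a correlation mainly compares 4 group means. Per1 and Cry1 share their pattern with many genes that changed in the same direction on induction in both genotypes. Each gene named as most like Cry1 had its lowest group mean in KO differentiating libraries. Among the clock genes Per1 and Cry2 had r = 0.979 and Per1 and Dbp 0.138.

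Other groups of genes moved with these contrasts. All 10 glucocorticoid-responsive genes of a list chosen for this purpose rose on induction in both genotypes (31.6% of all genes rose in WT and 36.4% in KO), Fkbp5 by 4.92 in WT and 4.82 in KO and Tsc22d3 by 3.65 and 4.39. Their summed level was 482 to 513 RPKM in the undifferentiated libraries, 2479 and 2290 in WT differentiating and 3323 and 3491 in KO differentiating libraries. Mt2 alone was at 1033 and 885.3 RPKM in WT and 1505 and 1629 in KO differentiating libraries. After induction 7 of the 10 were higher in KO (17.8% of all genes). Fkbp5, Zbtb16 and Nr3c1 did not pass there (limma adjusted p = 0.0526, 0.154 and 0.137). Of 6 immediate early genes, which answer serum within minutes, 4 were lower in KO undifferentiated cells (17.5% of all genes), Fos by -1.85 and Egr1 by -1.25. Proliferation genes (6) summed to 155 and 157 RPKM in WT and 215 and 215 in KO undifferentiated libraries, and to 79.2 and 86.3 in WT and 38.9 and 26.5 in KO differentiating ones. In undifferentiated cells 2 of the 6 passed as higher in KO and 4 did not pass (14.7% of all genes were higher). In differentiating cells all 6 passed as lower (22.9% of all genes). All 7 osteoblast genes were lower in KO than in WT differentiating cells (22.9% of all genes). The part of these groups in the differences of the clock genes was not tested.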

How the data were processed

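RNA of passage 4 MSC cultures was depleted of rRNA, sequenced with strand as short single reads, aligned with TopHat2 2.1.0 to mm10 and quantified with Cuffdiff of Cufflinks 2.2.1, per the labels and the methods of the study. The authors deposited 1 table of RPKM values for 24346 genes in 8 libraries. Counts were not analysed here: 72.5% of 4215 low values were whole reads within 0.05, too few to recover reads, and depth is an estimate from these steps. The depth of each library was the one with the largest such share, so the share is raised by that choice. The chance share of 10% holds for a depth fixed beforehand. The labels gave the groups and nothing ties replicates to separate animals, so p-values measure the spread between these libraries, which may be technical.

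The 15342 genes averaging 0.1 RPKM or more were fitted as log2(RPKM + 0.1) with limma 3.58.1 (R 4.3.3), with a mean for each group, a variance trend and Benjamini-Hochberg adjustment over all genes (4 residual and 1.98 prior degrees of freedom). With 2 against 2 libraries an exact permutation test cannot go below a two-sided p of 0.333, so none is given. The 17 alternatives covered the pseudocount, filter, scaling, variance model, libraries fitted, a replicate block and leaving out each library. The named genes were the 10 clock genes and listed genes that were DEGs or core to the loop. The members and lists were chosen with earlier results of these data known. Gene positions are from GENCODE vM21, promoter windows from RefSeq.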

Additional observations from a re-analysis of the deposited data

Results flagged for a closer look

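The difference between KO and WT in the response to induction passed the limma interaction test (Benjamini-Hochberg over all genes) in 6 of the 10 clock genes, so these responses are set out together. On the log2 scale it was 1.33 for Per3, 1.11 for Dbp, 0.82 for Per2, 0.70 for Tef, 0.66 for Nr1d2 and -0.23 for Clock. Among all genes 19.4% passed upward and 20.0% downward. For Dbp both differentiating WT libraries were below both undifferentiated WT libraries. Both differentiating KO libraries were above both undifferentiated KO libraries. No group had the 4 libraries that a check for single outlying libraries needs.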

How the results depend on the processing

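Of 840 values of single clock genes under the alternatives, 785 kept direction and side of the limit, 32 lost the call, 7 gained it and 16 changed sign, the last all among values that had not passed. Leaving out 1 library gave 28 of the losses. The count of clock genes passing was 1 to 5 for undifferentiated genotype, 5 to 7 for differentiating genotype, 6 to 8 for induction in WT, 9 to 9 in KO and 5 to 6 for the interaction with 1 library left out, and the DEG counts were 0 to 0, 0 to 1, 1 to 2, 3 to 4 and 2 to 2. With a pseudocount of 1 the DEG counts were 1 for induction in KO and 1 for the interaction. Signs changed for Per2 in WT induction under quantile normalization (-0.0221), for Nr1d1 there under quantile normalization (-0.0581) and median centring (-0.0321), and for the Cry2 interaction with a pseudocount of 1 (0.00198), quantile normalization (0.0483) and median centring (0.00593). With 1 library left out, ranges that crossed 0 were -0.0115 to 0.00434 (Cry1, undifferentiated genotype), -0.19 to 0.0635 (Per1, differentiating genotype), -0.212 to 0.0125 (Per3, WT induction), -0.0125 to 0.15 (Nr1d1, WT induction), -0.00197 to 0.212 (Nr1d1, KO induction), -0.0705 to 0.144 (Nr1d1, interaction) and -0.0721 to 0.0469 (Cry2, interaction). The cause was not tested. A group left with 1 library is assumed to vary like the others. Libraries with the same replicate number did not deviate together (r = -0.0936 to 0.0351 over 12269 genes), and a replicate block, which took Nr1d1 in undifferentiated cells to an adjusted p of 0.0519 and that count to 4, changed no other call of a clock gene. With 2 libraries a group, small differences in the low genes Per2 and Per1 are the least precise.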
